A study of Mus musculus with 23 samples.

Results

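The comparison described here is between 2 dendritic cell (DC) populations sorted from the spleens of untreated mice, DC3 and DC1b. Its members are the libraries whose sample labels read untreated and name one of these populations, which gave 4 of the 23 libraries of the series, 2 of DC3 and 2 of DC1b. By the labels, DC3 cells were CD8 negative with low CD172, and DC1b cells were CD8 intermediate and CD172 positive. CD8 and CD172 (SIRPa, encoded by Sirpa) are surface proteins that divide spleen DCs into groups. All animals were wild type BALB/c mice without treatment, and their age is not given in the sources used here. Each population came from 2 pools of mice, numbered 1 and 2 in the labels, and equal numbers were taken as the same pool. A library thus stands for a pool of animals and not for a single mouse. The other 4 untreated libraries, of DC1a (CD8 high, CD172 negative) and DC2 (CD8 low, CD172 high) cells of the same pools, shared the estimate of the spread. The 15 libraries of mice labelled TLI, an abbreviation that the labels do not expand, came from 4 other pools and served as an independent set for the same pair of populations (4 libraries of DC3 and 4 of DC1b).

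Conventional DCs present antigen to T cells and are divided into cDC1 cells, which depend on the transcription factors Batf3, Irf8 and Id2 and take up material from dead cells, and cDC2 cells, which carry CD172 and are marked by Irf4 and many lectin and Fc receptors. Plasmacytoid DCs (pDCs) are the specialised producers of type I interferon, depend on the E protein Tcf4, and carry Siglec-H, Bst2 and Ccr9. Id2 protein binds E proteins and keeps them from DNA, so that Tcf4 and Id2 are commonly found at opposite levels in pDCs and conventional DCs.

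Total estimated counts were 21238676 to 25531376 in the 4 libraries and 19256447 to 28688091 in the 8 untreated libraries. Levels are given as CPM (the count divided by the library total after scaling by edgeR's trimmed mean of M-values, TMM, and multiplied by 1e6), for pool 1 and then pool 2. A gene with 3 counts or fewer in each library of a population was taken as at the floor, which lay at 0.114 to 0.129 CPM in the 4 libraries, and a fold against such a population is a lower bound. Floors cover counting error only, since amplified reads are not independent molecules. A gene was called at an adjusted p under 0.05 in the quasi-likelihood test of edgeR, adjusted by Benjamini-Hochberg over 16676 genes. Since fewer cells of a type and less RNA per cell cannot be told apart in sorted bulk samples, all levels are those of the sorted population as a whole.

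The surface proteins of the sort were compared with the labels first. Cd8a had 0.386 and 40.5 CPM in DC3 and 140.2 and 377 CPM in DC1b, so that pool 2 of DC3 held transcripts of a gene that the sort took as negative. Sirpa had 1.03 and 0.229 CPM in DC3 and 12.3 and 87.9 CPM in DC1b. Both genes were lower in each DC3 library than in each DC1b library, as their labels state, but neither was called (adjusted p = 0.418 for Cd8a and 0.127 for Sirpa, edgeR). Itgax, which encodes the DC protein CD11c, had 134 and 215 CPM in DC3 and 69.8 and 90.5 CPM in DC1b, and H2-Ab1, a chain of MHC class II, had 7839 and 8700.4 CPM in DC3 and 5589 and 4143 CPM in DC1b. All 4 libraries therefore held transcripts of the proteins that define DCs.

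The cell type markers set the DC1b libraries apart from their name. Summed over 39 pDC markers, transcripts came to 13231 and 19728 CPM in DC1b as compared to 1299 and 1012 CPM in DC3, 538 and 625 CPM in DC1a, and 1262 and 888 CPM in DC2. Both DC1b libraries thus lay above the other 6 untreated libraries in these transcripts, although their label names a CD8 intermediate subset of DC1 cells. The gate that the study describes, for populations that include DC1b but not DC3, removed cells with B220, a protein that pDCs carry. The summed level of 30 cDC1 markers was 9045 and 9395 CPM in DC3 and 4314 and 4576 CPM in DC1b, with DC1a at 14760 and 13858 CPM. The summed level of cDC2 markers was 4664 and 6111 CPM in DC3 and 7312 and 10728 CPM in DC1b, with DC2 at 16521 and 15004 CPM.

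**Figure D1:**
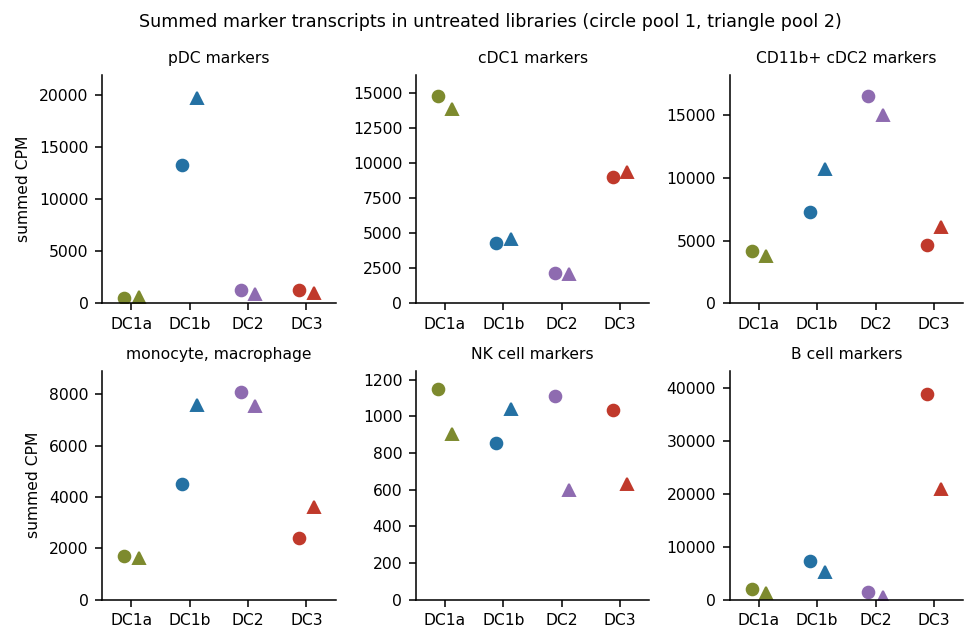
Summed CPM of 6 lists of marker genes (vertical axes, starting at 0) in the 8 untreated libraries by population (horizontal axes); circles are pool 1 and triangles pool 2, and there are no error bars because both pools are drawn. The pDC markers stand at 13231 and 19728 CPM in DC1b and at 1299 CPM or less in the other 3 populations. The sum of B cell markers is highest in DC3, where most of it is the immunoglobulin gene Igkc.

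In the comparison of all genes, 50 genes were called, 0.3% of those tested. Of these, 11 were higher in DC3 (0.066% of the genes tested) and 39 were lower (0.234%). At an unadjusted p under 0.05 there were 2150 genes, 963 higher and 1187 lower, or 12.9% of those tested. In each of the 50 called genes both DC3 libraries lay on the same side of both DC1b libraries, which was the case in 43.5% of all genes tested. With the pool as a replicate block, the fit that uses the shared pool numbers, only 2 of the 50 calls were kept, Crip1 and Gm21762. The calls also rest on all of the untreated libraries, since 10 genes were called without either DC1a library and 0 without any 1 of the DC1b, DC3 or DC2 libraries, with 1726 to 2275 genes at an unadjusted p under 0.05 in those fits of edgeR. The biological coefficient of variation was 0.911, so that only large or very even differences could be called with 2 libraries a population.

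**Figure D2:**
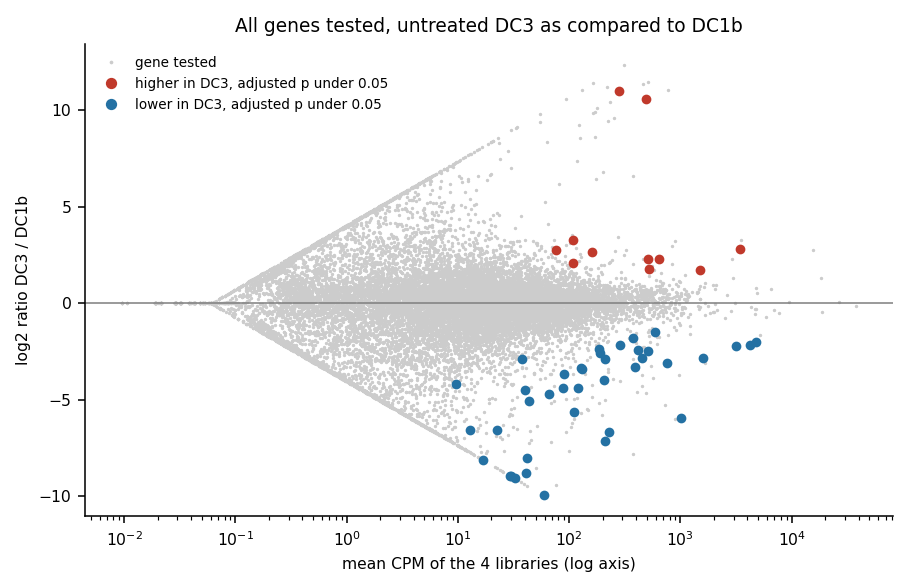
Each of the 16676 genes tested by its mean CPM over the 4 libraries (horizontal log axis) and the log2 ratio of the DC3 mean to the DC1b mean (vertical axis), with the 11 genes called higher in DC3 in red and the 39 called lower in blue. The straight edges of the cloud are genes at the floor in one population, and most genes with a large ratio were not called.

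The 6 called genes with the largest decreases in DC3 were Fcgr4, Ms4a6d, Fabp4, Hpgd, Abhd6 and Cd209c. Fcgr4, an activating receptor for IgG (chromosome 1, 171018920 to 171029761 of GRCm38), had 0 and 0.0381 CPM in DC3 and 129 and 107 CPM in DC1b. It was at least 972-fold lower in DC3 (adjusted p = 0.0331, edgeR), with 0 and 1 counts in its libraries. Ms4a6d, of the MS4A family of membrane proteins, had 0 and 0 CPM in DC3 and 66.5 and 62.4 CPM in DC1b and was at least 531-fold lower. Fabp4, a fatty acid binding protein of macrophages and fat cells, had 0.0857 and 0.114 CPM in DC3 and 59.7 and 60.4 CPM in DC1b and was at least 495-fold lower. For these genes the DC3 libraries held at most 3 counts each. Hpgd, which breaks down prostaglandins, had 0 and 0 CPM in DC3 and 70.3 and 47.9 CPM in DC1b and was at least 487-fold lower. Abhd6, a lipid hydrolase, had 0.214 and 0.152 CPM in DC3 and 87 and 75.4 CPM in DC1b, a ratio of 443. Cd209c, a C-type lectin of the DC-SIGN family, had 0 and 0 CPM in DC3 and 28.8 and 38.3 CPM in DC1b and was at least 276-fold lower. Their adjusted p ranged from 0.0231 to 0.0497 (edgeR).

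Of these genes, DC2 cells, which are also CD172 positive, held all 6, at 212 CPM of Ms4a6d, 87.3 CPM of Fcgr4, 58.5 CPM of Abhd6, 37.9 CPM of Fabp4, 17 CPM of Cd209c and 17 CPM of Hpgd (means of 2 libraries). DC1a cells had 15.3 CPM of Abhd6 and 5.05 CPM of Fcgr4, and under 1 CPM of the other 4. Over the 39 genes lower in DC3, the mean level of DC2 was nearer to DC1b in 26 and nearer to DC3 in 13, and that of DC1a was nearer to DC3 in 32 and to DC1b in 7.

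Another set of genes was high in DC1b and in no other untreated population. Cox6a2, a subunit of cytochrome c oxidase (chromosome 7, 128205435 to 128206387), had 38.1 and 27.5 CPM in DC3 and 1536 and 2434 CPM in DC1b, a ratio of 60.6 (log2 fold change -5.92 ± 0.55, SE, adjusted p = 0.0268, edgeR), and DC1a and DC2 had 12.9 and 1.31 CPM. Its exons overlap those of Itgad by 70 bases. Gm21762 had 2.44 and 3.54 CPM in DC3 and 301 and 540.4 CPM in DC1b and D13Ertd608e had 3.39 and 5.75 CPM in DC3 and 307 and 603 CPM in DC1b, with ratios of 141 and 99.6. Their transcripts are 99.9% identical in the annotation, 1 difference in 704 bases, so reads of one cannot be assigned apart from the other and both stand for 1 observation. Mctp2, a membrane protein with calcium binding domains, had 11.5 and 10.8 CPM in DC3 and 282 and 176 CPM in DC1b and 0.868 and 0 CPM in DC1a and DC2. Grm8, a metabotropic glutamate receptor, had 0.257 and 0.381 CPM in DC3 and 96.6 and 69.8 CPM in DC1b, a ratio of 261. Sla2, an adaptor that dampens signals of lymphocyte receptors, had 5.14 and 4.68 CPM in DC3 and 103 and 149.8 CPM in DC1b, a ratio of 25.8, in a gene whose exons overlap another gene by 731 bases.

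**Figure D3:**
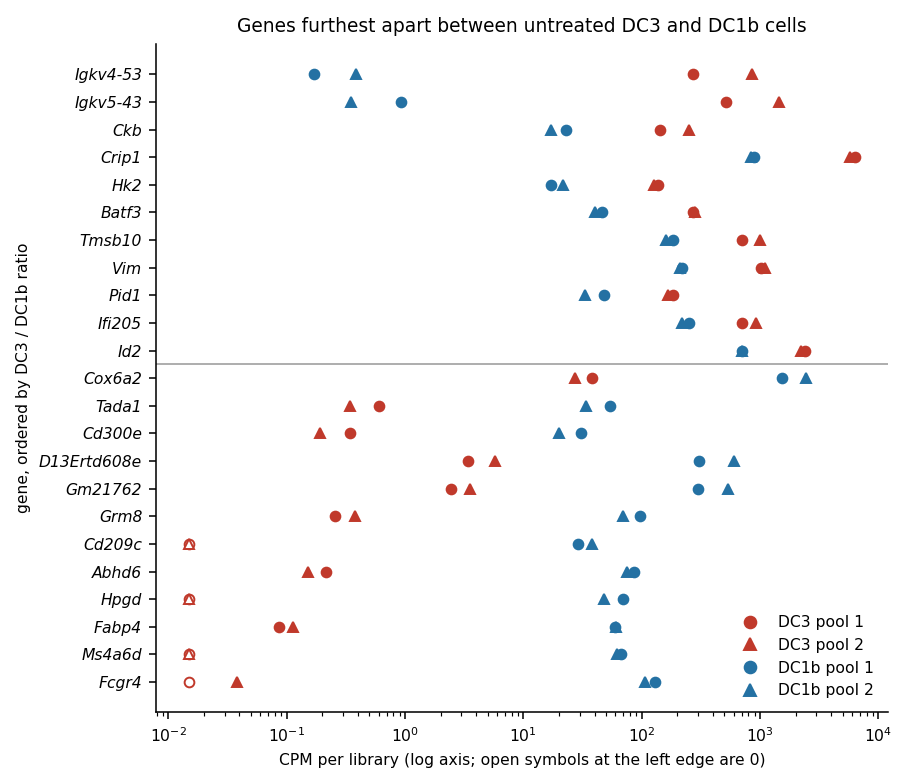
CPM in each of the 4 libraries (horizontal log axis) for the 12 called genes with the largest decreases in DC3, below the line, and the 11 called genes that were higher, above it; red is DC3, blue DC1b, circles pool 1 and triangles pool 2, with open symbols for a count of 0. The pools of one population do not overlap with those of the other in any gene drawn.

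Among pDC markers all 39 were measured and all 39 had a lower fitted level in DC3, with a median log2 fold change of -4.00 as compared to 0 over all genes tested. Only Tcf4, Cox6a2 and D13Ertd608e were called, 3 of 39, as compared to 0.234% of all genes called lower. At an unadjusted p under 0.05, 29 were lower, which 7.12% of all genes were. In 38 of the 39 the libraries of both populations did not overlap, as in 43.5% of all genes tested. The list was chosen with earlier results of these data known, so these counts are not an independent test. Tcf4, the transcription factor that pDCs depend on (chromosome 18, 69343356 to 69689079), had 83 and 60.2 CPM in DC3 and 925 and 505 CPM in DC1b, a ratio of 9.99 (log2 fold change -3.32 ± 0.37, SE, adjusted p = 0.0389, edgeR). Siglech, which encodes the pDC lectin Siglec-H, had 41.8 and 33.3 CPM in DC3 and 1046 and 1794 CPM in DC1b with an adjusted p of 0.151 (edgeR), so that its ratio of 37.8 was not called. Klk1 had 20.7 and 35.2 CPM in DC3 and 1099 and 2446 CPM in DC1b, Ccr9, a homing receptor of pDCs, had 13.5 and 7.85 CPM in DC3 and 314 and 302 CPM in DC1b, and Bst2 had 17.1 and 20 CPM in DC3 and 119 and 132 CPM in DC1b (adjusted p = 0.154, 0.208 and 0.139, edgeR).

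The DC3 libraries were not without these transcripts. Their 1299 and 1012 CPM of pDC markers included 207 and 63.8 CPM of Ly6c2, 83 and 60.2 CPM of Tcf4 and 65.4 and 34.7 CPM of Ly6d. Of the pDC genes that also function in innate sensing, Tlr7, a sensor of RNA in endosomes, had 11 and 3.35 CPM in DC3 and 106 and 175 CPM in DC1b, and Tlr9, a sensor of DNA, had 1.67 and 0.152 CPM in DC3 and 4.88 and 4.83 CPM in DC1b. Irf7, which drives interferon genes, had 52.4 and 34.1 CPM in DC3 and 69.1 and 98.1 CPM in DC1b. None of these 3 genes was called (adjusted p = 0.288, 0.687 and 0.439, edgeR).

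The genes that were higher in DC3 included those of cDC1 identity. Batf3, the factor that cDC1 cells depend on (chromosome 1, 191097847 to 191108945), had 269.9 and 280.3 CPM in DC3 and 45.9 and 40.3 CPM in DC1b, a ratio of 6.38 (log2 fold change 2.67 ± 0.25, SE, adjusted p = 0.0268, edgeR). Id2, the antagonist of E proteins (chromosome 12, 25093799 to 25097140), had 2401 and 2245 CPM in DC3 and 701 and 703 CPM in DC1b, a ratio of 3.31 (adjusted p = 0.0347, edgeR). Ifi205, of the interferon-inducible family of DNA sensors, had 700.0 and 927 CPM in DC3 and 253 and 219.6 CPM in DC1b, a ratio of 3.44 (adjusted p = 0.0418, edgeR). DC1a cells had 315, 3204 and 690.4 CPM of these genes, on the DC3 side of the DC1b values, and DC2 cells had 151, 529 and 72.2 CPM.

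Over the 30 cDC1 markers, 25 had a higher fitted level in DC3 and 5 a lower one, with a median log2 fold change of 1.38. Of them, 3 were called higher, as were 0.066% of all genes. At an unadjusted p under 0.05, 10 were higher and 2 lower, as compared to 5.77% and 7.12% of all genes. Wdfy4, which cDC1 cells need for cross-presentation, had 597 and 302 CPM in DC3 and 57.2 and 81.9 CPM in DC1b, and Naaa, a lipid amidase, had 674 and 532 CPM in DC3 and 142 and 151 CPM in DC1b, but neither was called (adjusted p = 0.0755 and 0.122, edgeR). Cd24a had 586 and 557 CPM in DC3 and 52.3 and 114 CPM in DC1b. Its ratio of 6.87 was not called (adjusted p = 0.447, edgeR). Some other markers of the list differed little or ran the other way. Irf8 had 876 and 871 CPM in DC3 and 973 and 845 CPM in DC1b (log2 fold change -0.06 ± 1.05, SE). Its mean in DC1a was 603 CPM, below its level in each of these libraries. Clec9a, the receptor for dead cells, had 236 and 269 CPM in DC3 and 227 and 202 CPM in DC1b (0.23 ± 0.24, SE). The chemokine receptor Xcr1 had 160.2 and 141 CPM in DC3 and 101 and 67 CPM in DC1b, higher in both DC3 libraries, as compared to 505 CPM in DC1a. Cd207, the lectin langerin, had 33.1 and 14.4 CPM in DC3 and 171 and 172 CPM in DC1b, lower in both DC3 libraries than in both DC1b libraries, with 890.3 CPM in DC1a and an adjusted p of 0.257 (edgeR). DC3 and DC1b thus both held cDC1 transcripts, at levels below those of DC1a for Xcr1, Clec9a and Cd207.

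A further 6 genes called higher in DC3 were Crip1, Vim, Tmsb10, Ckb, Hk2 and Pid1. Crip1, a small LIM domain protein (chromosome 12, 113146316 to 113153879), had 6361 and 5755 CPM in DC3 and 893 and 838 CPM in DC1b, a ratio of 7.0 (log2 fold change 2.81 ± 0.21, SE, adjusted p = 0.0231, edgeR), and it was the gene with the highest level among the 11. Vim, the intermediate filament vimentin, had 1015 and 1106 CPM in DC3 and 221 and 210.0 CPM in DC1b, and Tmsb10, a thymosin that binds actin monomers, had 707 and 1003 CPM in DC3 and 183 and 159 CPM in DC1b. Their ratios were 4.92 and 4.99. Ckb, the brain type creatine kinase, had 144 and 252 CPM in DC3 and 22.8 and 17.2 CPM in DC1b, a ratio of 9.87, and Hk2, a hexokinase that starts glycolysis, had 137 and 127 CPM in DC3 and 17 and 21.5 CPM in DC1b, a ratio of 6.84. Pid1 had 184 and 166 CPM in DC3 and 47.7 and 33.5 CPM in DC1b. Vim had its highest mean in DC3 among the untreated populations, with 264 CPM in DC1a and 168 CPM in DC2. Tmsb10 and Ckb were at 1029.8 and 212 CPM in DC1a, above their DC3 means. Over the 11 genes higher in DC3, the mean level of DC1a was nearer to DC3 in 8 and to DC1b in 3. That of DC2 was nearer to DC3 in 4 and to DC1b in 7.

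The remaining called genes higher in DC3 were 2 immunoglobulin kappa variable segments, Igkv4-53 (chromosome 6, 69648824 to 69649363) with 273 and 851 CPM in DC3 and 0.17 and 0.386 CPM in DC1b, and Igkv5-43 (chromosome 6, 69823355 to 69823943) with 515 and 1457 CPM in DC3 and 0.934 and 0.347 CPM in DC1b. The transcripts of these segments are 63.8% identical. Immunoglobulin genes took 7.32% and 3.97% of all counts in DC3 as compared to 1.62% and 0.959% in DC1b, 0.284% and 0.15% in DC1a and 0.17% and 0.0335% in DC2, and 37 and 16 of 218 variable segments exceeded 100 CPM of the plain library total in DC3 as compared to 4 and 2 in DC1b. Igkc, the kappa constant region, had 34833 and 19637 CPM in DC3 and 5402 and 2568 CPM in DC1b. The B cell list summed to 38953 and 20959.5 CPM in DC3, most of it Igkc, and to 7216 and 5158 CPM in DC1b. B cell surface and signalling genes did not follow in the same measure. Cd79a had 59.7 and 62 CPM in DC3 and 5.43 and 21.3 CPM in DC1b, Cd79b had 214 and 58.5 CPM in DC3 and 75.4 and 90.6 CPM in DC1b, and Ms4a1, which encodes CD20, had 0 and 0.114 CPM in DC3 and 17.2 and 0 CPM in DC1b. None of the 19 measured B cell markers was called, 11 had a higher and 8 a lower fitted level in DC3, and their median log2 fold change was 0.22. The part of B lineage cells or of their free RNA in the immunoglobulin values was not tested. With immunoglobulin genes left out before scaling, an alternative chosen after the data were seen, 49 genes were called, 9 higher and 40 lower, and 48 of them were among the 50.

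Some transcripts of NK cells, and a few of T cells, had levels in both DC3 libraries above those of both DC1b libraries, without a call. Ncr1, the activating receptor NKp46, had 33.1 and 49.1 CPM in DC3 and 0 and 0.154 CPM in DC1b, Nkg7, a granule protein, had 133 and 117 CPM in DC3 and 0.764 and 0 CPM in DC1b, Gzma, granzyme A, had 202 and 36.6 CPM in DC3 and 6.24 and 0 CPM in DC1b, and Klrb1c had 2.91 and 11.2 CPM in DC3 and 0.212 and 0 CPM in DC1b. Apart from Gzma in pool 1 of DC1b, these genes were under 1 CPM in DC1b and had means under 1 CPM in DC1a and DC2. Of the 15 NK markers measured, 11 had a higher and 4 a lower fitted level in DC3, the median log2 fold change was 4.02, and none was called (adjusted p = 0.208 for Ncr1, edgeR). The summed level of the list, which includes genes that DCs use, was 1035 and 629 CPM in DC3 and 852 and 1041 CPM in DC1b. Of 13 T cell markers measured, 7 had a higher and 6 a lower fitted level and none was called. Trbc1, a constant region of the T cell receptor, had 7.84 and 43.8 CPM in DC3 and 0 and 0.193 CPM in DC1b, whereas Il7r, the interleukin 7 receptor, had 30.2 and 1.6 CPM in DC3 and 194 and 208 CPM in DC1b. The summed level of the list was 175 and 109 CPM in DC3 and 249 and 287 CPM in DC1b, opposite to Trbc1. Mcpt8 and Cpa3, which basophils express, were high in single libraries. Mcpt8 had 473 and 11.4 CPM in DC3 and 0.637 and 0.154 CPM in DC1b. Cpa3 had 327 and 29.1 CPM in DC3 and 0.425 and 166 CPM in DC1b. Pool 1 of DC3 stood out in both genes, and pool 2 of DC1b in Cpa3 alone. The part of NK cell, T cell and basophil transcripts in the called genes was not tested.

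Most Fc and lectin receptors had a lower fitted level in DC3. Of 44 measured, 34 had a lower and 10 a higher fitted level, and the median log2 fold change was -2.07. At an unadjusted p under 0.05, 20 were lower and 2 higher, as compared to 7.12% and 5.77% of all genes. Fcgr4, Cd209c and Clec7a were called lower, as were 0.234% of all genes. Clec7a, the beta-glucan receptor dectin-1, had 10.9 and 15.6 CPM in DC3 and 118 and 211 CPM in DC1b, a ratio of 12.4 (adjusted p = 0.0497, edgeR). Fcgr3 had 1.07 and 1.87 CPM in DC3 and 47.6 and 76 CPM in DC1b and Clec4a3 had 1.84 and 0.152 CPM in DC3 and 184 and 209.9 CPM in DC1b, and they were not called (adjusted p = 0.154 and 0.139, edgeR). Fcgr2b, the inhibitory receptor for IgG, had 42.1 and 83.3 CPM in DC3 and 91.1 and 77.6 CPM in DC1b (-0.43 ± 0.43 on the log2 scale, SE). Tyrobp, the adaptor DAP12 through which many of these receptors signal, was called with 1339 and 1752 CPM in DC3 and 5299 and 8521 CPM in DC1b, a ratio of 4.47. Fcer1g, the related adaptor, had 534 and 761 CPM in DC3 and 1056 and 1568 CPM in DC1b (adjusted p = 0.238, edgeR).

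The myeloid surface genes Cd300e, with 0.343 and 0.19 CPM in DC3 and 30.7 and 20.2 CPM in DC1b, and Cd300lf, with 4.16 and 2.67 CPM in DC3 and 82.2 and 70.7 CPM in DC1b, were called lower, as was the Src family kinase Fgr with 5.7 and 10.1 CPM in DC3 and 166 and 168 CPM in DC1b. Ear2, a ribonuclease of eosinophils and monocytes, had 3.99 and 4.65 CPM in DC3 and 209 and 219.6 CPM in DC1b, a ratio of 49.7. Of 27 monocyte and macrophage markers measured, 20 had a lower fitted level in DC3 and 2 were called, Fcgr4 and Cd300e, with a median of -1.74. At an unadjusted p under 0.05, 8 were lower and 1 higher, as compared to 7.12% and 5.77% of all genes. Of all genes tested, 8252 of 16676 had a lower fitted level and 0.234% were called lower. The list summed to 2405 and 3589 CPM in DC3 and 4507 and 7598 CPM in DC1b. Lyz2, the lysozyme of these cells, had 1287 and 2513 CPM in DC3 and 1740.0 and 3060.1 CPM in DC1b (-0.34 ± 0.37 on the log2 scale, SE), and Adgre1, which encodes F4/80, had 21.6 and 0 CPM in DC3 and 38.5 and 21.1 CPM in DC1b. Neither of them was called (adjusted p = 0.78 and 0.819, edgeR).

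Of 31 cDC2 markers, 26 had a lower and 5 a higher fitted level in DC3, the median was -1.81 and none was called. At an unadjusted p under 0.05, 15 were lower and 3 higher, as compared to 7.12% and 5.77% of all genes. Cd4 had 7.5 and 0.952 CPM in DC3 and 133 and 153 CPM in DC1b, and Cd209a, a lectin of the DC-SIGN family, had 109 and 160.0 CPM in DC3 and 417 and 998 CPM in DC1b (adjusted p = 0.226 and 0.157, edgeR). Irf4 had 55.2 and 89.2 CPM in DC3 and 66.3 and 83.9 CPM in DC1b (-0.06 ± 0.67 on the log2 scale, SE). Rbpj and Notch2, of the Notch pathway that cDC2 cells need, ran the other way, with 161 and 90.3 CPM in DC3 and 29.6 and 26.5 CPM in DC1b for Rbpj and 68.1 and 54.8 CPM in DC3 and 20 and 13.7 CPM in DC1b for Notch2 (adjusted p = 0.0998 and 0.275, edgeR). Esam and Itgam, both of which mark cDC2 cells, were low in all 4 libraries, at 0.386 and 0.114 CPM of Esam in DC3 and 0.127 and 3.74 CPM in DC1b, and at 1.97 and 0.343 CPM of Itgam in DC3 and 3.27 and 2.43 CPM in DC1b.

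**Figure D4:**
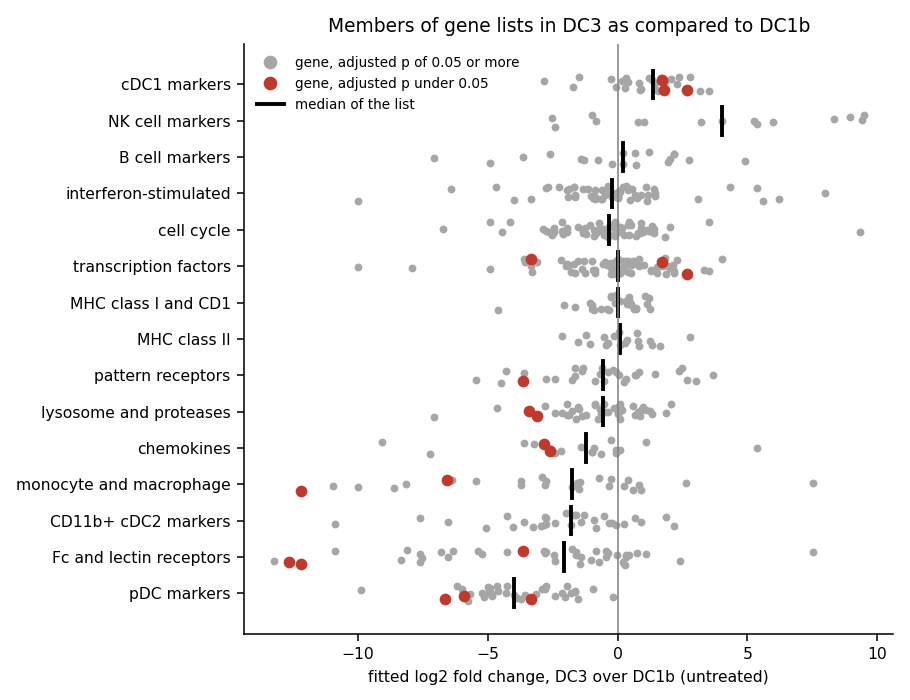
Fitted log2 fold change of DC3 over DC1b (horizontal axis) for each measured member of 15 gene lists (rows); red points were called at an adjusted p under 0.05, grey points were not, and black bars are list medians. The pDC markers lie below 0 throughout with a median of -4.00, cDC1 markers have a median of 1.38, and MHC class II has a median of 0.11. Points beyond about 8 in size are genes at or near 0 counts in one population, whose fitted value is not a measure of size.

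Among genes of antigen handling, Ctsb and Ctso, both cysteine cathepsins of the lysosome, were called lower in DC3. Ctsb had 132 and 185 CPM in DC3 and 959 and 1769 CPM in DC1b, a ratio of 8.61, with 774 bases of its exons shared with another gene, and Ctso had 18.8 and 26.3 CPM in DC3 and 239 and 236 CPM in DC1b, a ratio of 10.5 (adjusted p = 0.0405 and 0.0271, edgeR). Ctsl had 16.5 and 58.3 CPM in DC3 and 659 and 1217 CPM in DC1b and was not called (adjusted p = 0.0919, edgeR). Of 44 lysosomal genes measured, 26 had a lower and 17 a higher fitted level, and 1 had no counts in either population. At an unadjusted p under 0.05, 15 of them were lower and 5 higher, as compared to 7.12% and 5.77% of all genes. Only Ctsb and Ctso were called, and 0.234% of all genes were called lower. Cst3, the inhibitor cystatin C, had 21814 and 31038 CPM in DC3 and 9179.6 and 11758 CPM in DC1b, higher in both DC3 libraries but not called (adjusted p = 0.0928, edgeR). Of 19 genes of MHC class II presentation, 11 had a higher and 8 a lower fitted level, with a median of 0.11 and no call. Cd74, the invariant chain, had 12252 and 19212 CPM in DC3 and 16569.7 and 26064 CPM in DC1b, and Ciita, the activator of class II genes, had 138 and 169 CPM in DC3 and 45.9 and 82.2 CPM in DC1b. Of 28 genes of MHC class I and CD1 presentation none was called and the median was 0.01. B2m, the shared light chain, had 2487 and 2461 CPM in DC3 and 6482 and 9128 CPM in DC1b, with an adjusted p of 0.0606 (edgeR), and Cd1d1, which presents lipids, had 45.7 and 59.6 CPM in DC3 and 76.8 and 63.4 CPM in DC1b (-0.41 ± 0.33 on the log2 scale, SE).

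Among signalling molecules, the inflammatory chemokines Ccl3 and Ccl4 were called lower in DC3. Ccl3 had 53.9 and 53.5 CPM in DC3 and 272 and 376 CPM in DC1b, a ratio of 6.04, and Ccl4 had 372 and 419.7 CPM in DC3 and 2058 and 3565 CPM in DC1b, a ratio of 7.1 (adjusted p = 0.0232 and 0.0331, edgeR). Of 20 chemokines measured, 17 had a lower fitted level, and the median was -1.20. At an unadjusted p under 0.05, 6 chemokines were lower and 0 higher, as compared to 7.12% and 5.77% of all genes. Of all genes, 0.234% were called lower. Of 22 chemokine and migration receptors, 14 had a lower fitted level and none was called, and Ccr7, the receptor for entry into lymph nodes, had 107 and 97.9 CPM in DC3 and 115 and 233 CPM in DC1b. Tgfbr1, a receptor chain for TGF-beta, had 22.7 and 23.7 CPM in DC3 and 269 and 199 CPM in DC1b, a ratio of 10.1, and Il2rg, the common gamma chain of cytokine receptors, had 134 and 124 CPM in DC3 and 543 and 845 CPM in DC1b, a ratio of 5.37. Il12a, a chain of interleukin 12, had 0 and 0.533 CPM in DC3 and 110.3 and 88.5 CPM in DC1b and was not called (adjusted p = 0.187, edgeR). Of 32 pattern receptors and their adaptors, 20 had a lower fitted level. Only Clec7a was called lower, as were 0.234% of all genes. Tlr3, a sensor of double-stranded RNA, had 99.3 and 47.1 CPM in DC3 and 19.4 and 8.96 CPM in DC1b, and Nlrp3, an inflammasome sensor, had 22.6 and 26.4 CPM in DC3 and 1.57 and 2.28 CPM in DC1b, both higher in each DC3 library and not called (adjusted p = 0.199 and 0.122, edgeR).

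Of 81 transcription factors, Batf3 and Id2 were called higher and Tcf4 lower, 41 had a higher and 40 a lower fitted level, and the median was 0.02. Of all genes tested, 0.066% were called higher and 0.234% lower. In the other lists fixed for the comparison no gene was called, and their medians lay between -0.90 and 0.19 on the log2 scale. Of 71 cell cycle genes, 26 had a higher and 45 a lower fitted level, and Mki67, a marker of dividing cells, had 92.3 and 13.1 CPM in DC3 and 60.8 and 62.4 CPM in DC1b. Of 61 interferon-stimulated genes, 27 had a higher and 33 a lower fitted level. The list of 31 genes of mature, migrating DCs had 21 lower and 10 higher, and Cd40, a costimulatory receptor, had 7.54 and 5.37 CPM in DC3 and 33.9 and 13.9 CPM in DC1b while Cd86, another, had 332 and 509 CPM in DC3 and 172 and 163 CPM in DC1b (adjusted p = 0.238 and 0.127, edgeR). Of 12 measured genes of DC progenitors, 6 had a higher and 6 a lower fitted level, with Flt3, the growth factor receptor of DCs, at 118 and 171 CPM in DC3 and 102 and 159 CPM in DC1b and Kit at 118 and 91.4 CPM in DC3 and 26.8 and 47 CPM in DC1b.

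A further 14 genes were called lower in DC3, and their ratios ran from 2.85 for Sat1, an enzyme of polyamine breakdown with 297 and 318 CPM in DC3 and 764 and 988 CPM in DC1b, to 93.8 for Tada1, a subunit of a histone acetylase complex. Tada1 had 0.60 and 0.343 CPM in DC3 and 54.4 and 34 CPM in DC1b, and its exons overlap another gene by 1054 bases. The genes with the highest levels in DC1b were Fth1, the heavy chain of the iron store ferritin, with 1679 and 2062 CPM in DC3 and 7553 and 7667 CPM in DC1b, and Plac8 with 922 and 1310.2 CPM in DC3 and 4102 and 6357 CPM in DC1b. Sat1 comes next, and then Smc6, of the complex that repairs chromosomes, with 150.0 and 158 CPM in DC3 and 1031 and 699 CPM in DC1b, Fyb, an adaptor of immune cells, with 138 and 85.9 CPM in DC3 and 951 and 624 CPM in DC1b, and Bcl2a1b, an inhibitor of cell death, with 157 and 178 CPM in DC3 and 576 and 599.6 CPM in DC1b. Bcl2a1b is 98.2% and 99.1% identical to Bcl2a1a and Bcl2a1d and shares exon bases with another gene, so its reads are uncertain. Cacna1e, a calcium channel subunit, had 53.3 and 47.1 CPM in DC3 and 366 and 372 CPM in DC1b, Snx5, a sorting nexin, had 93.6 and 118 CPM in DC3 and 419 and 522 CPM in DC1b, and Irf2bp2, a corepressor, had 66.9 and 53 CPM in DC3 and 296 and 329.6 CPM in DC1b. The others were Gm5547, A530030E21Rik, Nupr1 and Arhgap1, with DC1b means of 383, 84.4, 66.9 and 18.2 CPM in this order. As with Cox6a2, the mean of A530030E21Rik was low in the other 3 untreated populations, at 2.49 CPM in DC3, 0.578 CPM in DC1a and 0.136 CPM in DC2. In all, 10 of the 39 genes share exon bases with another gene, among them Il2rg, Snx5, Irf2bp2 and Fyb, and their counts are uncertain for this reason.

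Since Tcf4 binds the E-box (CANNTG, which reads the same on both strands) and Id2 withholds E proteins from it, the 250 bases before the RefSeq start were read for the called genes whose window held no annotated exon, with the window of lowest coordinate for a gene with several. Genes on chromosomes 8 and 18 were left out, among them Tcf4, Hpgd, Cd209c and Irf2bp2. Before these exclusions a RefSeq start was at hand for 28 of the 39 genes called lower and 9 of the 11 called higher. That left 14 genes lower in DC3 and 5 higher. An E-box stood in 8 of the 14 and in 1 of the 5, and in 69.5% of the windows of 14973 genes chosen by the same rule. Tgfbr1, counted among those without, holds an E-box in its second window. The form CAGCTG stood in 3 of the 14 and in none of the 5, and in 13.28% of those windows. Windows of 2 genes lower in DC3 and of 2 genes higher are given, from RefSeq on GRCm38.p6, written from 5′ to 3′ on the strand of the gene with E-boxes in capitals. Both lower genes shown hold CAGCTG, although 6 of the 14 lower genes hold no E-box. Of the 5 higher genes, 4 hold none. The examples therefore do not stand for their groups. A match is a match of letters and does not show binding. The windows are those of the reference genome, and these regions were not examined in the BALB/c mice of the series.
Ctso, lower in DC3 (chr3:81932351-81932600, plus strand): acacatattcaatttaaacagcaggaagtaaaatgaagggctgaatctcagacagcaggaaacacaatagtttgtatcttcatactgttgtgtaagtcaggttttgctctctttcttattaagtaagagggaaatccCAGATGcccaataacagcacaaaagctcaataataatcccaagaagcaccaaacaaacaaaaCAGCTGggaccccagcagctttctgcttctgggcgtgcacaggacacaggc
Abhd6, lower in DC3 (chr14:8002638-8002887, plus strand): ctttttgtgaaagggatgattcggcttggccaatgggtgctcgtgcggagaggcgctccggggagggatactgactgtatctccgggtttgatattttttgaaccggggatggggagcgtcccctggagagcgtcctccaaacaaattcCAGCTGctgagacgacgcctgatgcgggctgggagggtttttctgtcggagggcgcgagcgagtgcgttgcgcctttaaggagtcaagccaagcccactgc
Crip1, higher in DC3 (chr12:113151762-113152011, plus strand): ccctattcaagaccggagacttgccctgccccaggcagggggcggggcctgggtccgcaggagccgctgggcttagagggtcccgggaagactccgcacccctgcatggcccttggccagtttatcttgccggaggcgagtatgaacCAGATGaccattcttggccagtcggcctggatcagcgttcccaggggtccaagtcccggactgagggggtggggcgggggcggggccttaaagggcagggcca
Hk2, higher in DC3 (chr6:82774455-82774704, minus strand): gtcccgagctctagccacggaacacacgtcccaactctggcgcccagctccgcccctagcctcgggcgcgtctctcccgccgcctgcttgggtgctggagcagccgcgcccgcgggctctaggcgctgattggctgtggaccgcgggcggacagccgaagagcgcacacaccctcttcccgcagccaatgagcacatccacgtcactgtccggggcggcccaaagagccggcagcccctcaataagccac
Ctso holds 2 E-boxes, CAGATG and CAGCTG, Abhd6 holds CAGCTG, Crip1 holds CAGATG and Hk2 holds none in these windows.

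The same populations were compared in TLI mice, in libraries that the calls above did not use. There 217 of 19597 genes were called (1.11%), 27 higher in DC3 (0.138%) and 190 lower (0.97%). Within batch 1 alone, which holds TLI pools 1 and 2, 24 genes were called, all lower in DC3, and 23 of them were among the 217. Of the 39 genes lower in untreated DC3, 33 had a lower fitted level and 21 were called lower in TLI DC3. Of the 11 genes higher in untreated DC3, 10 had a higher fitted level and 2 were called higher, Vim and Ifi205. Levels in TLI libraries are on the common scale of all 23 libraries, so they are set beside the untreated values only roughly.

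Of the 6 genes with the largest decreases, 4 were also apart in every TLI library. Fcgr4 ranged from 174 to 347 CPM in the 4 DC1b libraries of TLI mice with a median of 278 CPM, and from 0.576 to 8.53 CPM in the 4 DC3 libraries. Fabp4 ranged from 103 to 313 CPM in DC1b and from 0 to 0.389 CPM in DC3. Ms4a6d ranged from 338 to 444 CPM in DC1b and from 4.6 to 20.8 CPM in DC3, and Hpgd from 90.1 to 141 CPM in DC1b and from 0 to 1.42 CPM in DC3. The ranges did not overlap in any of these 4 genes, and all 4 were called (adjusted p = 0.000681, 7.38e-06, 2.5e-05 and 0.000541 for Fcgr4, Fabp4, Ms4a6d and Hpgd, edgeR). Cd209c was at 0 in all 4 DC3 libraries and at 3.86, 9.31, 0.0899 and 9.08 CPM in DC1b of pools 1 to 4 and was called (adjusted p = 0.0159, edgeR). Abhd6 ranged from 0 to 13.3 CPM in DC3 and from 0.0899 to 20.2 CPM in DC1b, with overlap, and was not called (adjusted p = 0.696, edgeR).

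Other marker lists moved with this comparison in TLI mice. On the scale of all 23 libraries, neutrophil markers summed to 25197, 2574, 3572 and 10356 CPM in DC1b of TLI pools 1 to 4 and to 47.3 to 212 CPM in DC3, while the untreated DC1b libraries had 43.3 and 279.6 CPM. S100a8, a calcium binding protein of neutrophils and monocytes, was called lower in DC3 of TLI mice (adjusted p = 0.0166, edgeR). Monocyte and macrophage markers, a list that includes Fcgr4, summed to 10530 to 30198 CPM in DC1b and to 1570 to 5237 CPM in DC3 of TLI mice. Erythroid and platelet markers summed to 19446 to 139573 CPM in the DC3 and DC1b libraries of TLI pools 1 and 2, and to 379 to 7963 CPM in those of pools 3 and 4. Their part in the differences of TLI mice was not tested. Without single DC1b libraries of TLI mice 162 to 211 genes were called.

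The pDC transcripts of DC1b did not show the same levels in TLI mice. Whether DC1b was gated alike in untreated and TLI mice is not given in the sources used here. Cox6a2 ranged from 0 to 16.3 CPM in DC1b of TLI mice and from 4.09 to 9.64 CPM in DC3, and D13Ertd608e from 0 to 11.8 CPM in DC1b and from 0 to 2.06 CPM in DC3. Tcf4 ranged from 25.9 to 71.7 CPM in DC1b and from 25.3 to 49.7 CPM in DC3. These ranges overlapped. Summed over the 39 markers on the scale of all 23 libraries, DC1b had 12427 and 18191 CPM in untreated mice and 2059 to 2706 CPM in the 4 TLI libraries, and DC3 had 1186 and 947 CPM in untreated mice and 897 to 1062 CPM in TLI mice. In TLI mice 26 of the 39 markers had a lower fitted level in DC3, with a median log2 fold change of -0.69. Of the 39, 1 was called lower, as were 0.97% of all genes tested.

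The change of the DC3 to DC1b difference between treatments was tested as an interaction, which called 4 of 19597 genes (0.0204%) and 0 within batch 1 alone (1669 at an unadjusted p under 0.05, edgeR). None of them was a pDC marker, and 15 of the 39 pDC markers had a smaller deficit in TLI DC3 at an unadjusted p under 0.05, which 3.43% of all genes had in that direction, while 0 of the 39 had the opposite change; in both directions together 8.49% of all genes passed. The median interaction over all genes was -0.15 on the log2 scale. Of the genes higher in DC3, Crip1 ranged from 3014 to 9240.2 CPM in DC3 and from 2132 to 3160 CPM in DC1b of TLI mice, so that its ranges overlapped. Batf3 ranged from 140.1 to 223 CPM in DC3 and from 50.6 to 145 CPM in DC1b, with overlap, and Id2 from 1294 to 2773 CPM in DC3 and from 919 to 2001 CPM in DC1b, also with overlap. Ifi205 did not overlap, from 635 to 939 CPM in DC3 and from 248 to 499.9 CPM in DC1b. Igkv4-53 was under 1 CPM in all 4 DC3 libraries and reached 88 CPM in a DC1b library, opposite to its order in untreated mice.

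**Figure D5:**
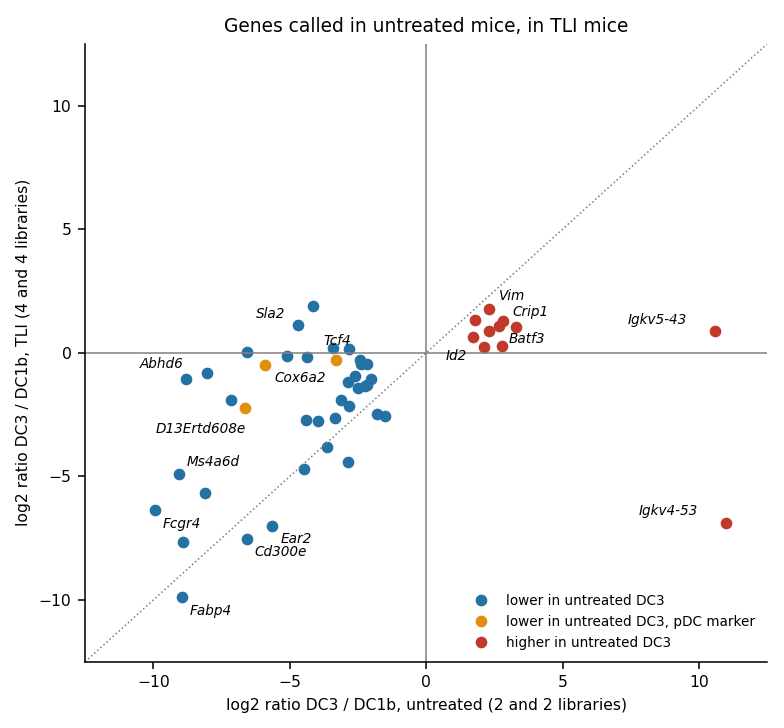
The 50 genes called in untreated mice by the log2 ratio of mean CPM, DC3 over DC1b, in untreated mice (horizontal axis) and in TLI mice (vertical axis), with means raised to the floor of 3 counts; the dotted line marks equal ratios. Fcgr4, Ms4a6d, Fabp4, Ear2 and Cd300e lie far below 0 on both axes, the pDC markers Cox6a2, D13Ertd608e and Tcf4 lie nearer 0 in TLI mice, and Igkv4-53 lies on opposite sides.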

How the data were processed

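Cells were sorted from spleen, per the labels directly into reaction buffer, whereas the methods of the study describe lysis buffer and a step of RNA purification for DC1a, DC1b and DC2. The cDNA was made with a SMART-Seq kit for low input and sequenced. The deposited values are estimated counts per gene, whole numbers that the authors derived with StringTie from HISAT2 alignments to GRCm38 after Trimmomatic, without scaling for depth or length. They were used as deposited. Gene symbols and positions are from GENCODE M21, which held 47310 of the 47729 identifiers. Because the counting works from transcript coverage, genes with overlapping exons or near-identical copies are uncertain.

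Counts were analysed with R 4.3.3, edgeR 4.0.16 and DESeq2 1.42.0, and sequences and figures with Python 3.11.15. The 8 untreated libraries were scaled by TMM, filtered with filterByExpr (16676 genes), and fitted by population with 4 residual degrees of freedom; the contrast was DC3 minus DC1b. TLI libraries and the interaction were tested in a fit of all 23 libraries with a term for batch as the labels give it (1 or 2), with both batches among the TLI pools alone. Pairing was read from the pool numbers in the labels. Equal numbers were taken to name the same mice, which the labels do not state outright. The correlation over genes between the deviations of DC3 and of DC1b from their group means was 0.000713 within a pool, and the fit with the pool as a replicate block is given as an alternative. Duplicates correlated at 0.803 (DC3) and 0.816 (DC1b), and libraries of different populations at 0.740 to 0.749. Since all untreated libraries are of 1 batch, batch could not be tested within them.

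Genes are named by rule: the 12 largest increases and decreases among called genes by the ratio of mean CPM with a floor of 3 counts (11 increases existed), with a mean of at least 5 CPM in the higher population, plus the lead genes and called members of the gene lists. Other called genes and list members are given as examples that were chosen after their values were seen. The comparison, the members and the lists were chosen with earlier results of these data known. The fit of the untreated libraries was first checked on simulated counts of known change. Of 200 genes changed 8-fold among 15890 tested, edgeR recovered 48 with 1 false call. DESeq2's test recovered 130 with 248 false calls. Alternatives were DESeq2's size factors and test, other filters, fewer or more libraries, the block, and leaving out each library in turn.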

Additional observations from a re-analysis of the deposited data

Results flagged for a closer look

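In the libraries of TLI mice, 32 groups of 4 values were examined for a library far from the others (16 genes in 2 populations) by Dixon's gap ratio, and 3 were past its critical value; chance flags about 1 group in 20. Abhd6 in DC3 reached 13.3 CPM in a library while the median was 1.03 CPM. Igkv5-43 in DC3 reached 743 CPM in a library with a median of 4.32 CPM. Ckb in DC3 reached 743 CPM in a library with a median of 117 CPM.

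The difference between DC3 and DC1b itself differed between TLI and untreated mice for Ms4a6d, with an interaction of 8.69 on the log2 scale, which rests on counts of 0 in untreated DC3 and is not a measure of size. It also differed for Lyz2, with an interaction of -2.95 on the log2 scale. Both were called in the quasi-likelihood test of edgeR, adjusted by Benjamini-Hochberg, and without the untreated DC1b library of pool 1 or the untreated DC3 library of pool 2 no gene was called.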

How the results depend on the processing

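Against 50 genes called, RLE size factors gave 50 (9 higher, 41 lower, 48 shared). The count moved to 223 without a filter, 121 with at least 10 counts in every library, 1361 by DESeq2's test, 77 in all 23 libraries, 2 with the pool as a replicate block and 0 in the 4 libraries alone, where 1872 genes had an unadjusted p under 0.05. In the simulated counts DESeq2's test made 248 false calls beside 130 recovered genes. The share of calls higher in DC3, 22.0% in the main fit, was 32.7% without a filter, 33.9% with at least 10 counts, 37.03% by DESeq2, 37.7% in 23 libraries, 18% with RLE and 10% without either DC1a library. Leaving out a library gave 0 to 10 calls: 10 without either DC1a library, and 0 without any DC1b, DC3 or DC2 library of pool 1 or 2, with 1726 to 2275 at an unadjusted p under 0.05. No named called gene changed sign in any alternative; of 83 named genes not called, up to 11 did.

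For TLI, 217 calls became 108 without the batch term, 24 in batch 1 alone, 171 with the mouse pool as a replicate block, and 128 to 211 without single libraries, lowest without DC3 pool 3 or 4 (128 and 129). The 4 interaction calls became 1 without the batch term, 0 in batch 1 alone (1669 unadjusted), 4 with the block and 0 to 12 without single libraries: 12 without TLI DC3 pool 1, 1 without untreated DC3 pool 1, and 0 without untreated DC1b pool 1 or DC3 pool 2 (1256 and 1185 unadjusted). The cause of these shifts was not tested. Depth limits genes with 3 counts or fewer in each library of a population, whose folds are bounds.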
